A study of Mus musculus with 8 samples.

Results

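The transcripts of 6 matrix metalloproteases (Mmp8, Mmp9, Mmp12, Mmp13, Mmp14 and Mmp19), the related protease Adamts1 and 3 tissue inhibitors of metalloproteases (Timp1, Timp2 and Timp3) were followed in macrophages with and without Grn, the gene of progranulin. These 10 genes, of 56980 in the table, were found by their symbols. The set was chosen from earlier results on the same libraries, in which Mmp12 and Adamts1 were already known to be higher in the knockout. For that reason the GrnKO to WT differences of the 10 genes are given below as a description, without p-values. Of the 10, 8 had enough counts to enter the fit over 12186 genes, and Timp1 and Timp3 were too low to be tested.

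Matrix metalloproteases (MMPs) are zinc enzymes that cut collagens, elastin and other extracellular proteins; they are made as inactive proenzymes, most of them secreted and some, such as MMP14, anchored in the membrane. ADAMTS proteases are secreted relatives that cut proteoglycans. TIMPs bind the active site of these enzymes and block it, so that matrix breakdown depends on both sides. Macrophages are a known source of MMP12, the macrophage elastase, whereas MMP8 and MMP9 are stored in neutrophil granules and MMP9 is also abundant in osteoclasts.

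The libraries came from bone-marrow-derived macrophages of C57/Bl6 mice, 4 wild type (WT) and 4 with a constitutive Grn knockout (GrnKO), all under the vehicle DMSO. Marrow from several mice was pooled for each replicate and differentiated for 7 days in M-CSF at 50 ng/mL; the cells were frozen, thawed and kept in culture for 3 days with M-CSF. The sources used here give neither the age of the mice nor the deleted part of Grn. Each library counted tags at the 3′ ends of polyadenylated transcripts. In such libraries a transcript gives about the same number of tags whatever its length, so levels are set side by side in CPM, counts scaled to the library's depth, with no division by length. A WT library held between 7413222 and 8768772 counts, a GrnKO library between 5828178 and 7944863. Grn itself ran from 1436 to 2027 CPM where it was intact and from 12.96 to 14.4 CPM where it was deleted, so all 8 libraries matched their labels. A summed list of 10 macrophage markers came to between 5683 and 10131 CPM in WT and to between 6740 and 8566 CPM in GrnKO libraries. Of these markers only Aif1 was called, lower in GrnKO, beside 4.25% called over all tested genes. However, 7 of the 10 had an unadjusted p under 0.05 in edgeR's quasi-likelihood test, and the median log2 fold change was -0.37. Such values were common over the table. In that test's order of p, gene 2348 of the 12186 tested had an unadjusted p of 0.058. Adgre1, Itgam, Fcgr1, Cd14 and Aif1 were lower in every GrnKO library than in any WT library, and Cd68 was higher. Groups without overlap were found in 12.0% of all tested genes. The summed markers of marrow stroma or fibroblasts (13 genes), of dendritic cells (6 genes) and of T, B or NK cells (7 genes) reached at most 5.03, 1.97 and 1.75 CPM in any library.

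Mmp12, Mmp13 and Mmp8 belong to a cluster of 10 MMP genes on chromosome 9, in which Mmp12 and Mmp13 are neighbours. The promoters of Mmp12 and Adamts1, the 2 genes of the set that were called, are shown with that of Mmp13, which lies next to Mmp12 and did not pass the test. They are RefSeq windows on GRCm38.p6, each 250 bases before to 50 bases after the annotated start, in the gene's own direction; the counts were made on GRCm39. Capitals mark the AP-1 motif TGANTCA, the TATA box TATAAA and the EGR motif GCGNGGGCG, each searched on both strands. The ETS motif AGGAAG was searched in the same way and is not marked. The Mmp12 window, the second of 2 annotated starts of that gene, is chr9:7347124-7347423 (plus strand), the Mmp13 window is chr9:7272264-7272563 (plus strand) and the Adamts1 window is chr16:85803064-85803363 (minus strand).
Mmp12: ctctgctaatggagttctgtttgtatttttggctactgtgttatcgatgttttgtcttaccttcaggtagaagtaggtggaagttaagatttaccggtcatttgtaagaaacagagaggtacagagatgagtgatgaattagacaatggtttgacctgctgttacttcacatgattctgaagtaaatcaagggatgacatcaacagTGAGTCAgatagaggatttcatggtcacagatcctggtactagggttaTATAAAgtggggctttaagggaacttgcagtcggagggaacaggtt
Mmp13: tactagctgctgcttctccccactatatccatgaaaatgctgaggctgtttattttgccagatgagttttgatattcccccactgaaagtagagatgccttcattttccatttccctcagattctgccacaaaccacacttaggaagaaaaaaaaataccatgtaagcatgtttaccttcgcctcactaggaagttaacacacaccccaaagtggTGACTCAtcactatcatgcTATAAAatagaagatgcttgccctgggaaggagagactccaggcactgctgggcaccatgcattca
Adamts1: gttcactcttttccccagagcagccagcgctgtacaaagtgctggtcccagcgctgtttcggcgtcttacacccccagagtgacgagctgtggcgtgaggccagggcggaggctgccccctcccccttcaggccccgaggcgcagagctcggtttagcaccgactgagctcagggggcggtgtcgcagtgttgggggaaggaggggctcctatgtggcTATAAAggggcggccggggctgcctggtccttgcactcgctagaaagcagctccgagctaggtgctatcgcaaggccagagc

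The Mmp12 and Mmp13 windows each hold an AP-1 match before a TATA box match, nearer to it in Mmp13 than in Mmp12. In the coordinates used here, with the annotated start as origin, the AP-1 match begins at -44 in Mmp12 and at -35 in Mmp13. The TATA box match begins at 5 in Mmp12, after the annotated start, and at -16 in Mmp13. The Adamts1 window has a TATA box at -32 and no AP-1 match. Windows were held for 8 of the 10 genes, with 9 starts in all. Mmp12 was the gene with 2 starts, and its first start had none of the 3 marked motifs. AP-1 was found in 2 of these 9 windows and in 7.81% of all 32851 windows of this length, and the TATA box in 4 of 9 and in 13.6% of all. These counts take in matches on either strand and at any place. In Mmp8 the TATA box match was the reverse complement, TTTATA, at -3. The EGR motif was found in the window of Mmp14, and in 5.55% of all windows. The unmarked ETS motif was found in the windows of Mmp8, Mmp13, Mmp14, Timp1, Timp3 and the first start of Mmp12, and in 35.4% of all windows. Tags from 3′ ends do not show which start the cells used, and a match is a run of letters, not a measured binding site.

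Across the set, Mmp12 and Adamts1 were higher in GrnKO macrophages, and the remaining tested genes did not pass the test. A gene was called when its Benjamini-Hochberg adjusted p over all 12186 tested genes was under 0.05 in edgeR's quasi-likelihood test of GrnKO against WT. By this rule 4.25% of all tested genes were called, and 2.79% were called higher in GrnKO (340 higher and 178 lower; 281 and 281 with no scaling factors). Of the 8 tested genes of the set, 2 were called, both higher. Their median log2 fold change was 0.43, against -0.03 over all tested genes. In 3 of the 8 (Mmp12, Adamts1 and Mmp8) no WT library overlapped a GrnKO library, as in 12.0% of all tested genes. Since this contrast was in view when the set was made, nothing is read from these shares.

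**Figure D1:**
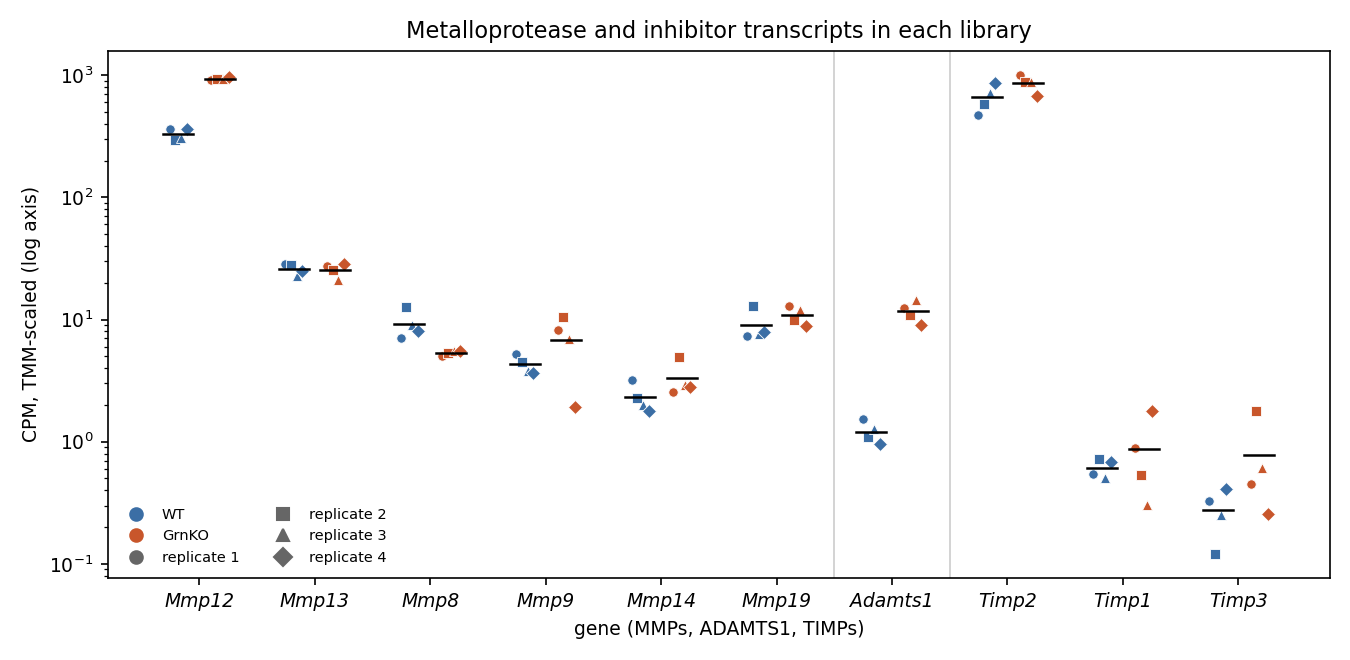
Levels of the 10 genes in each library, in CPM with TMM-scaled library sizes on a log axis; points are libraries (marker shape gives the replicate number) and black lines are group means of 4 libraries. Mmp12 and Adamts1 lie higher in every GrnKO library than in any WT library, Mmp8 lies lower, and the other genes overlap between the groups.

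Mmp12 (ENSMUSG00000049723.15), the macrophage elastase, was the most abundant protease of the set. WT replicates 1 to 4 held 365, 295, 306 and 362 CPM, and GrnKO replicates 1 to 4 held 918, 936, 929 and 959 CPM. Every GrnKO library was above every WT library, and the GrnKO libraries lay close together. The mean rose from 332 ± 36.5 to 936 ± 17.3 CPM (SD, n = 4 per group), a 2.82-fold difference (log2 fold change 1.49 ± 0.10, SE). Counting error alone would give SDs of 6.38 and 11.9 CPM. By mean level, Mmp12 was gene 503 of 56980 in WT and gene 124 in GrnKO libraries.

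Mmp13 (ENSMUSG00000050578.11), collagenase 3, is the next gene of the cluster beside Mmp12 and was the second most abundant MMP. By replicate number, WT libraries held 28.5, 28.2, 22.9 and 25.1 CPM, and GrnKO libraries held 27.4, 25.6, 21.2 and 28.5 CPM. The groups overlapped fully, with means of 26.2 ± 2.66 and 25.7 ± 3.22 CPM. The log2 fold change was -0.03 ± 0.14 (SE), and the gene was not called. Thus the ratio of Mmp12 to Mmp13 tags, which is free of any scaling between libraries, ran from 10.5 to 14.4 in WT and from 33.5 to 43.8 in GrnKO libraries.

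Mmp8 (ENSMUSG00000005800.4), neutrophil collagenase, was the only tested gene of the set besides Mmp13 with a negative fold change. WT replicates 1 to 4 held 7.11, 12.7, 9.06 and 8.03 CPM, from 59 to 105 counts, and the GrnKO replicates, in the same order, 5.06, 5.33, 5.49 and 5.48 CPM, from 30 to 43 counts. The groups did not overlap, and WT replicate 2 was the highest library. Mmp8 overlaps Gm31751 in RefSeq, as Mmp19 does Tmem198b, and reads of such pairs may be shared. The means were 9.22 ± 2.43 and 5.34 ± 0.20 CPM, and the log2 fold change was -0.79 ± 0.22 (SE). The gene was not called with all libraries, but it was called by DESeq2, with no scaling factors and when WT replicate 1 was left out (log2 fold change -0.89), and in none of the other 13 alternatives.

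Most of the listed neutrophil markers, but not all, moved in the same direction as Mmp8. Of 14 listed markers 4 were tested, and S100a8, S100a9 and Ngp were called lower in GrnKO. Over all 12186 tested genes 178 were called lower. Csf3r, the remaining tested marker, was not called, with means of 5.04 ± 2.41 CPM in WT and 5.21 ± 2.08 CPM in GrnKO (SD). Its log2 fold change was 0.04 ± 0.40 (SE). The list summed to 162, 90.7, 80.3 and 52.3 CPM in the WT libraries and, again by replicate number, to 25.0, 35.5, 22.0 and 18.5 CPM in the GrnKO ones. By replicate, the sum was highest in WT replicate 1 and Mmp8 in WT replicate 2. The other 10 markers were too low to test, and the mean of each was lower in GrnKO. Among these, Lcn2 had means of 1.49 and 0.29 CPM in WT and GrnKO, Ltf 1.57 and 0.40, Camp 0.96 and 0.29, and Retnlg 0.94 and 0.23 CPM; Ly6g and Elane were lowest, at no more than 0.24 and 0.12 CPM in any library. The part of neutrophil RNA in the Mmp8 values was not tested, and in bulk samples fewer cells of a type and less RNA per cell cannot be told apart.

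**Figure D2:**
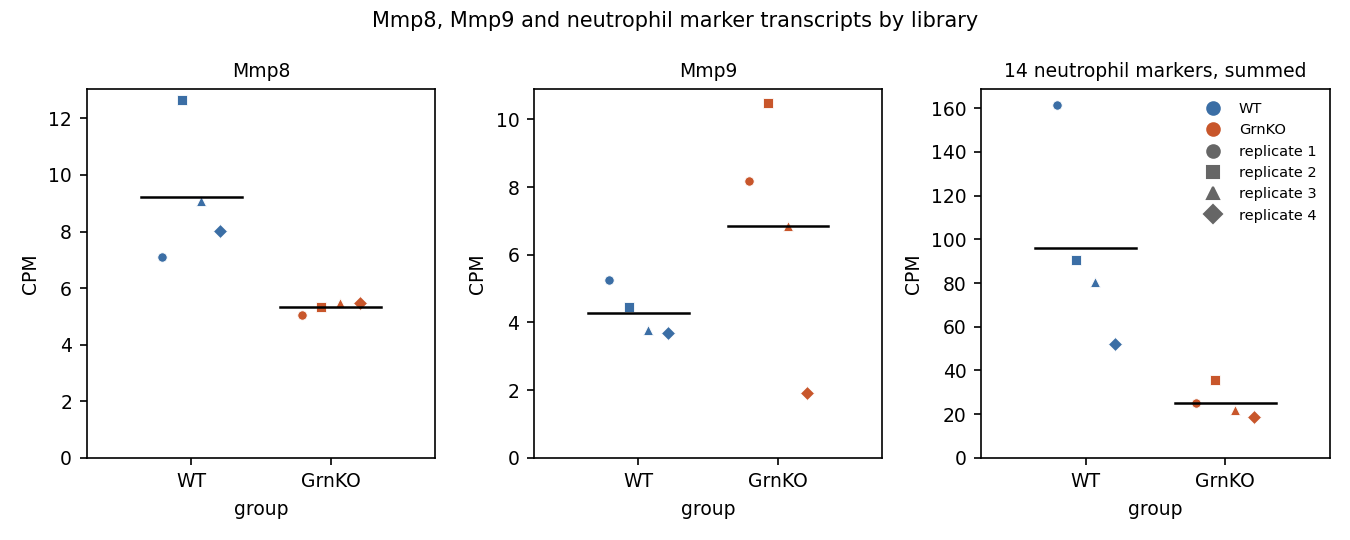
Mmp8, Mmp9 and the sum of 14 neutrophil markers in each library, in CPM on linear axes from 0; points are libraries (marker shape gives the replicate number) and black lines are group means of 4 libraries. Mmp8 and the marker sum are lower in all GrnKO libraries, whereas Mmp9 overlaps between the groups because GrnKO replicate 4 is the lowest of the 8 libraries.

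Mmp9 (ENSMUSG00000017737.3), gelatinase B, also stored by neutrophils, did not follow Mmp8. By replicate number, WT libraries held 5.25, 4.46, 3.78 and 3.68 CPM, and GrnKO libraries held 8.19, 10.5, 6.86 and 1.91 CPM. The first 3 GrnKO libraries were above all WT libraries, while GrnKO replicate 4, with 15 counts, was the lowest of all. The log2 fold change was 0.65 ± 0.40 (SE), and the gene was not called. Single libraries moved this value, to 0.98 without GrnKO replicate 4 and to 0.38 without GrnKO replicate 2, and limma-voom gave 0.37; none of these made it a call. Osteoclast markers, summed over 8 genes, lay between 130 and 155 CPM (WT) and between 315 and 375 CPM (GrnKO), most of it Atp6v0d2, a proton pump subunit that macrophages also express. Of the 5 tested markers 2 were called, both higher in GrnKO, beside 2.79% called higher over all tested genes. These were Atp6v0d2, with means of 96.0 and 295 CPM, and Ctsk, with means of 2.32 and 8.96 CPM. Acp5, a phosphatase of osteoclasts, had means of 1.45 and 4.43 CPM with no overlap between the groups, and was not called. Dcstamp and Nfatc1 overlapped between the groups, and the untested Calcr, Oscar and Ocstamp were at most 0.27, 0.13 and 0.38 CPM. The part of such cells in the Mmp9 values, and in those of Mmp12 and Mmp14, was not tested.

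Mmp14 and Mmp19 were low and overlapped between the groups. Mmp14 (ENSMUSG00000000957.12), the membrane-anchored MMP that activates proMMP2, had 3.17, 2.29, 2.01 and 1.77 CPM in the 4 WT libraries, in order of replicate, and 2.53, 4.97, 2.90 and 2.80 CPM in the GrnKO ones. These are 13 to 29 counts per library, so counting error alone gives SDs of 0.53 and 0.70 CPM, where the measured SDs were 0.61 (WT) and 1.12 CPM (GrnKO). Mmp19 (ENSMUSG00000025355.8), a secreted MMP of myeloid and other cells, had 7.33, 13.02, 7.55 and 7.90 CPM in the WT libraries and 12.8, 9.94, 11.9 and 8.92 CPM in the GrnKO ones, in the same order. WT replicate 2 was the highest library of Mmp19, as it was of Mmp8, and the 4 GrnKO libraries lay above the other 3 WT libraries. The log2 fold changes were 0.48 ± 0.31 for Mmp14 and 0.28 ± 0.22 for Mmp19 (SE), and neither gene was called. Without GrnKO replicate 2 the value for Mmp14 was 0.24, and without WT replicate 2 that for Mmp19 was 0.52.

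Adamts1 (ENSMUSG00000022893.15), which cuts the proteoglycans aggrecan and versican, had the largest fold change among the 8 tested genes of the set. WT replicates 1 to 4 held 1.53, 1.08, 1.26 and 0.95 CPM, and GrnKO replicates 1 to 4 held 12.4, 10.8, 14.3 and 9.05 CPM. The counts behind these were 14, 9, 10 and 7 in WT and 83, 61, 94 and 71 in GrnKO libraries. The lowest GrnKO library was thus far above the highest WT library. The filter asks for about 10 counts, at median depth, in at least 4 libraries. Adamts1 therefore entered the test through its GrnKO libraries, where it is high, and its call is part of the description. The mean rose from 1.21 ± 0.25 to 11.6 ± 2.25 CPM (SD, n = 4 per group), a log2 fold change of 3.24 ± 0.25 (SE) or 9.44-fold. In WT, Adamts1 was below the 6 MMPs by mean level; in GrnKO libraries it was the third protease after Mmp12 and Mmp13, and its range overlapped that of Mmp19.

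Timp2 (ENSMUSG00000017466.10), which inhibits most MMPs and also helps MMP14 to activate proMMP2, was the main inhibitor transcript. In WT replicates 1 to 4 its level was 473, 582, 721 and 866 CPM; among the GrnKO libraries, in the same order, it was 1010, 887, 875 and 670 CPM. The groups overlapped, since GrnKO replicate 4 lay below WT replicates 3 and 4. The means were 660 ± 170 and 861 ± 141 CPM (SD, n = 4 per group), the log2 fold change was 0.38 ± 0.18 (SE), and the gene was not called. The SD among WT libraries was far above the 8.99 CPM that counting error gives. Leaving out 1 library gave log2 fold changes of 0.25 (without WT replicate 1) to 0.54 (without WT replicate 4), and no call. By replicate number, the macrophage marker sum was 5683, 9147, 8791 and 10131 CPM in the WT libraries, and 7536, 8566, 8483 and 6740 CPM among the GrnKO libraries. Within each group it was lowest where Timp2 was lowest, but GrnKO replicate 1, the highest library of Timp2, had the second lowest sum of its group. Most of the sum was Lyz2, and its part in the Timp2 values was not tested.

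Timp1 and Timp3 were near the floor of detection. Timp1 (ENSMUSG00000001131.12), an inducible inhibitor, had 5, 6, 4 and 5 counts in WT and 6, 3, 2 and 14 counts in GrnKO replicates 1 to 4. Timp3 (ENSMUSG00000020044.14), which binds to the matrix and also inhibits ADAMTS and ADAM proteases, had 3, 1, 2 and 3 counts in WT and 3, 10, 4 and 2 counts in GrnKO replicates 1 to 4. In each gene a single GrnKO library (replicate 4 for Timp1, replicate 2 for Timp3) held the highest count, and the groups overlapped. When every gene with a count was tested, neither was called. All 3 TIMP genes overlap another gene in RefSeq: Timp1 lies with Syn1, Timp3 with Syn3 and Timp2 with Cep295nl. Syn1 stood at 3.65 to 9.17 CPM, above Timp1 in every library, and Syn3 and Cep295nl at no more than 0.53 CPM. The sources used here do not say whether reads were counted by strand, so the small Timp1 counts are uncertain.

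The order of levels in WT was Timp2, Mmp12, Mmp13, Mmp8, Mmp19, Mmp9, Mmp14, Adamts1, Timp1 and Timp3. Of these neighbours only Mmp8 and Mmp19 had overlapping ranges in WT. In GrnKO libraries the order was Mmp12, Timp2, Mmp13, Adamts1, Mmp19, Mmp9, Mmp8, Mmp14, Timp1 and Timp3. There the ranges of Mmp12 and Timp2 overlapped, as did those of Adamts1 and Mmp19, Mmp19 and Mmp9, Mmp9 and Mmp8, and Timp1 and Timp3.

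The ratio of MMP to TIMP tags was higher in every GrnKO library than in any WT library, and Mmp12 made up most of the protease side. WT replicates 1 to 4 held 416, 356, 352 and 408 CPM summed over the 6 MMPs, and the GrnKO replicates 974, 992, 978 and 1007 CPM. Mmp12 made up 82.9 to 88.6% of this sum in WT and 94.3 to 95.3% in GrnKO libraries, and Timp2 at least 99.7% of the TIMP sum in every library. The MMP sum over the TIMP sum was 0.88, 0.61, 0.49 and 0.47 for the WT libraries by replicate number, against 0.96, 1.12, 1.12 and 1.5 for the GrnKO libraries. The groups did not overlap, although WT replicate 1 came close to GrnKO replicate 1. Without Mmp12 the other 5 MMPs came to 50.9 ± 6.98 CPM (SD, n = 4) with Grn and to 52.1 ± 4.70 CPM (SD, n = 4) in its absence, and the ratio turned the other way, from 0.082 ± 0.028 to 0.061 ± 0.0075, with overlapping groups. These are transcript tags and say nothing of secreted or active protein.

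**Figure D3:**
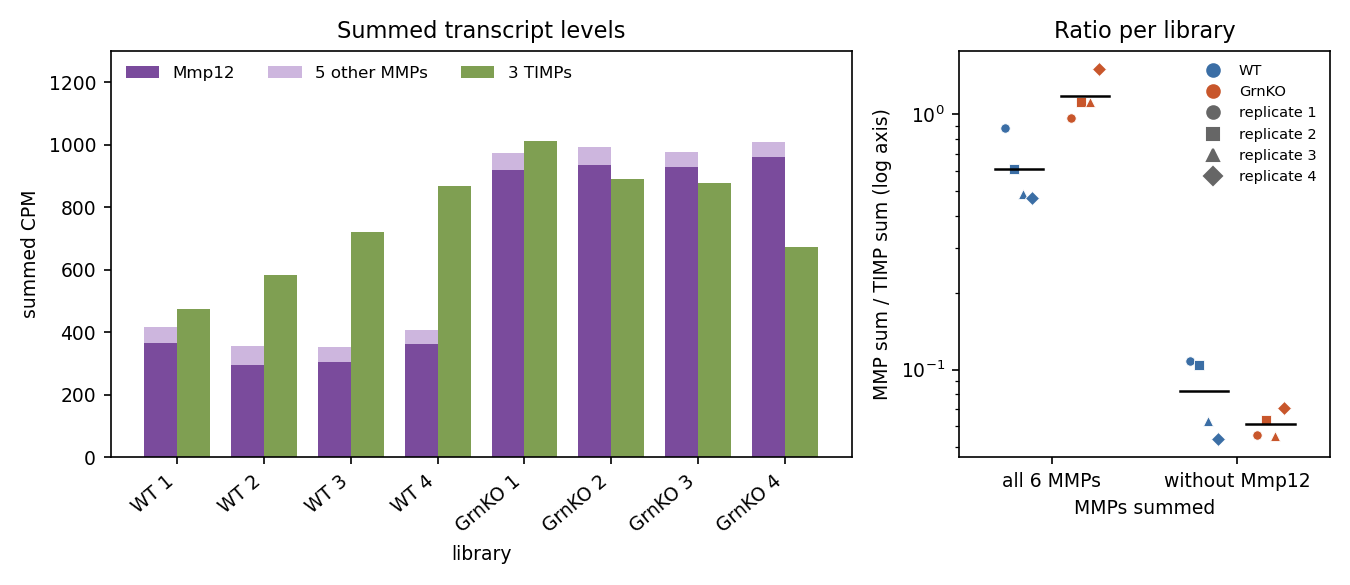
Left, summed CPM in each of the 8 libraries for Mmp12 with the 5 other MMPs stacked on it and for the 3 TIMPs; right, the MMP sum over the TIMP sum per library on a log axis, with and without Mmp12, with black lines at group means of 4 libraries. The MMP bars are 352 to 416 CPM in WT and 974 to 1007 CPM in GrnKO libraries, and the difference lies in the Mmp12 part.

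The cluster on chromosome 9 was followed gene by gene. In RefSeq order it holds Mmp13, Mmp12, Mmp1b, Mmp3, Mmp1a, Mmp10, Mmp8, Mmp27, Mmp20 and Mmp7, and 4 of these 10 genes were tested. Beside the 3 described above this was Mmp27, whose WT libraries held 2.52, 7.35, 7.05 and 5.58 CPM and whose GrnKO libraries held 7.30, 8.17, 8.54 and 7.13 CPM, by replicate number. Its groups overlapped (log2 fold change 0.47 ± 0.29, SE; edgeR quasi-likelihood test, adjusted p = 0.44). Mmp1b had no count in any library. Within the cluster Mmp12 was the one called gene of 4 tested, beside 4.25% called over all tested genes. Mmp12 was known to be higher when the set was made, so nothing is read from this count.

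**Figure D4:**
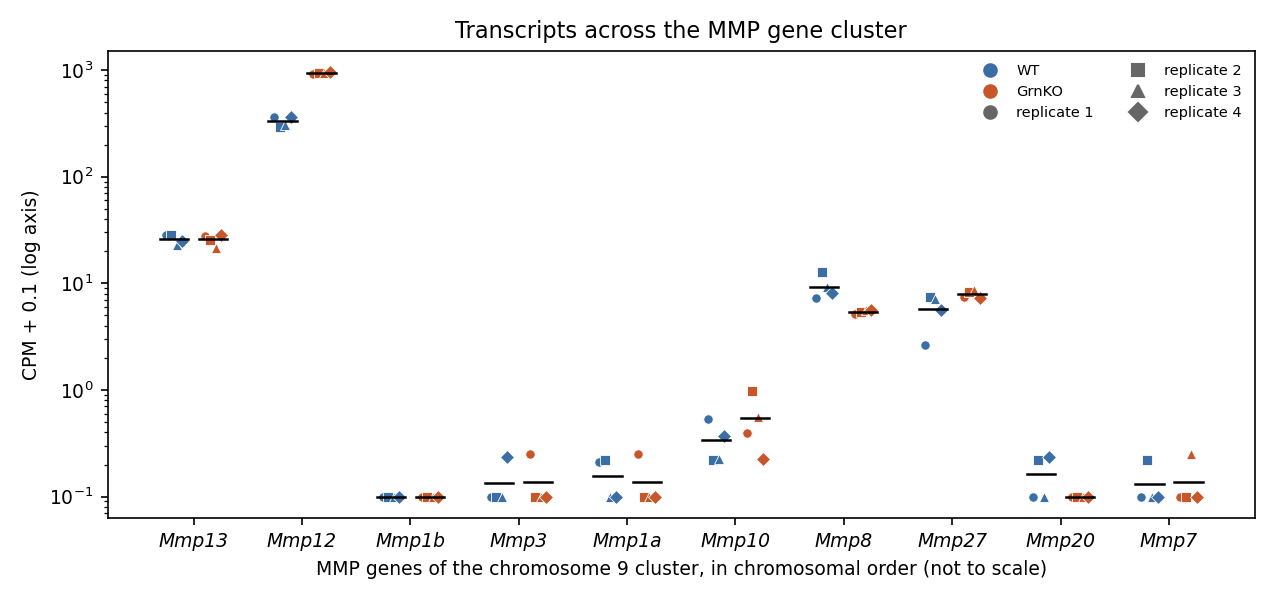
CPM plus 0.1 on a log axis for the 10 MMP genes of the chromosome 9 cluster, in chromosomal order and not to scale; points are libraries and black lines are group means of 4 libraries, and a point at 0.1 is a count of 0. Mmp12 is higher in GrnKO libraries while its neighbour Mmp13 lies at the same level in both groups.

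Beyond the set, few genes of these protease families had enough counts to be tested. The table held 80 genes of the MMP, TIMP, ADAMTS and ADAM families (23, 4, 19 and 34), of which 74 had at least 1 count and 17 were tested. Of the 9 tested genes outside the set, edgeR called 0, beside 4.25% of all tested genes, and 2 had an unadjusted p under 0.05. By limma-voom 0 of 9 were called as well, and by DESeq2 0 of the 14 that it tested. With so few genes, 0 calls is near that share, and nothing is read from it or from the 2 unadjusted p-values. Adam17, the sheddase that releases TNF, was the most abundant, with 795, 869, 940 and 989 CPM in the WT libraries by replicate number, and 795, 712, 695 and 648 CPM among the GrnKO libraries (log2 fold change -0.33 ± 0.10, SE; edgeR adjusted p = 0.11). WT replicate 1 and GrnKO replicate 1 were level; Adam17 was called with no scaling factors and when WT replicate 1 was left out. Adam8, a protease of activated myeloid cells, had mean levels of 413 ± 135 (WT) and 477 ± 64.2 CPM (GrnKO; SD, n = 4 each; edgeR adjusted p = 0.63), and was called higher when WT replicate 1, at 616 CPM, was left out. Adamts10 stood at 6.36 ± 1.52 and 5.39 ± 1.95 CPM (edgeR adjusted p = 0.72).

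**Figure D5:**
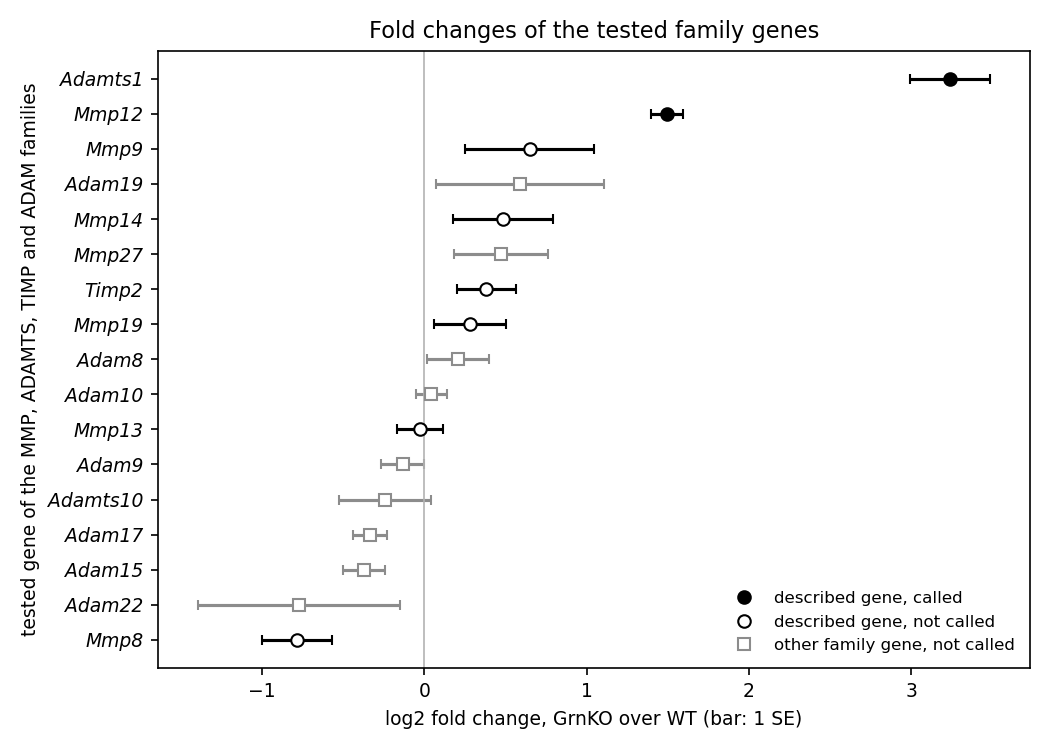
Log2 fold change of GrnKO over WT with 1 SE for the 17 tested genes of the MMP, TIMP, ADAMTS and ADAM families; circles are the 8 tested genes of the described set and squares the 9 others, and filled symbols are called genes. Adamts1 and Mmp12 stand apart at 3.24 and 1.49, and the other 15 genes lie between -0.79 and 0.65.

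Lists of genes that act with MMPs held 0 to 2 called genes each, to be read beside the 4.25% called over all tested genes. Unadjusted p-values under 0.05 were common over the table. In edgeR's order of p, gene 2348 of the 12186 tested had an unadjusted p of 0.058, so nothing is read from their counts. Among 29 transcription factors of the AP-1, ETS and other families known to act on MMP promoters, 2 of the 27 tested were called, both higher. The median log2 fold change over the tested ones was -0.09. An unadjusted p under 0.05 was found for 10 of them, in both directions. Fos, Fosl2, Ets1, Ets2, Nfkb1 and Rela were lower in GrnKO, and Egr1, Atf3, Nr1h3 and Pparg were higher. The immediate early factor Egr1 rose 3.78-fold, with means of 6.11 ± 1.504 CPM in WT and 23.2 ± 5.41 CPM in GrnKO cells (log2 scale 1.92 ± 0.22, SE; edgeR quasi-likelihood adjusted p = 6.4e-04). The stress-induced factor Atf3 rose 1.82-fold, with means of 68.3 ± 3.94 and 125 ± 15.5 CPM (edgeR adjusted p = 0.0015). In both, every GrnKO library was above every WT library.

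Of 16 genes that activate proMMPs or the plasmin system, 6 were tested and 1 was called, the same gene that alone had an unadjusted p under 0.05. This was Ctsk, a collagen-cutting lysosomal cathepsin, which rose 3.81-fold, with means of 2.32 ± 1.04 and 8.96 ± 1.22 CPM (edgeR adjusted p = 0.0027). Of 16 surface partners and clearance genes, 12 were tested, 5 had an unadjusted p under 0.05 and 1 was called: Cd63, a tetraspanin that binds TIMP1, rose from a mean of 2454 CPM (WT libraries between 1937 and 2858) to one of 3655 CPM (GrnKO libraries between 3245 and 4089; log2 fold change 0.57 ± 0.13; edgeR adjusted p = 0.029). Of 31 matrix proteins cut by these enzymes, 7 were tested, 3 had an unadjusted p under 0.05 and 1 was called, Tgfbi, which fell from 262 ± 27.4 to 104 ± 15.9 CPM (-1.34 ± 0.13; edgeR adjusted p = 2.2e-04). Spp1, the most abundant of the 7, was higher but not called. Its means were 3115 ± 1444 CPM in WT and 5822 ± 169 CPM in GrnKO (0.90 ± 0.23, edgeR adjusted p = 0.056). Nid2 was lower and not called (-2.16 ± 0.58, edgeR adjusted p = 0.061). The 24 matrix genes not tested, among them elastin, had too few counts. Of 9 genes listed as inhibitors other than TIMPs only Cst3 was tested, at 1149 ± 196 and 1070 ± 75.5 CPM (edgeR adjusted p = 0.74). Its product, cystatin C, inhibits cysteine proteases rather than metalloproteases. Of the 4 genes that share a locus with a TIMP, Syn1 alone was tested (log2 fold change 0.48 ± 0.25; edgeR adjusted p = 0.36).

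Genes whose pattern over the 8 libraries was most like that of a tested gene were found by the root-mean-square difference of mean-centred log2 CPM, among 9208 candidates with a mean of 5 CPM or more. For Mmp12 they were Pla2g7 (0.093), Bcl2a1d (0.12) and Cblb (0.14). For Adamts1 they were Dio2 (0.15), Pakap (0.25), whose symbol is shared by several entries, and Cdkn1c (0.33). For Timp2 they were Gdpd1 (0.082), Pdp1 (0.087) and Scpep1 (0.091), for Mmp8 Sh2b2 (0.074), Kank2 (0.077) and Cttnbp2nl (0.10), and for Mmp13 Slc35e3 (0.057), Psme1 (0.059) and Ubac1 (0.063). The nearest genes were farther for Mmp9 (H2-Aa, Fat3 and Etv3, at 0.36 to 0.46), and lay between for Mmp14 (Pdgfa, Smyd2 and Coq10b) and Mmp19 (Gabarap, Tollip and Dgat1), at 0.11 to 0.16. These are descriptions of 8 libraries and depend on how much each gene varies.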

How the data were processed

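RNA of 8 macrophage cultures was sequenced as 3′ tags with molecular identifiers. The authors deposited estimated counts per gene, made with Salmon on GRCm39 per the submitters' processing notes (version not given in the sources used here). Among the non-zero values 36.4% were not whole (tolerance 1e-06), and all were rounded. The log2 table was left aside.

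Genotypes were read from the titles. edgeR 4.0.16 in R 4.3.3 was run on all genes passing filterByExpr (12186 of 56980), with TMM factors and robust quasi-likelihood dispersions; p-values were adjusted by Benjamini-Hochberg. SEs follow from the F statistic and CPM uses TMM-scaled sizes. Within groups the chi-square per degree of freedom between 2 libraries was at least 2.91, so no library repeats another. Each gene list gives counts of called genes. From lists the called genes were named, up to 4 by p, or else up to 2 by level; the patterns most like each tested gene gave 3 names each. The procedure was checked on simulated counts. Alternatives were other factors, 2 other filters, DESeq2 1.42.0, limma-voom 3.58.1, non-robust dispersions, a replicate block and leaving out each library. The genes and lists were chosen with earlier results of these data known, and the promoter motifs after the values were seen.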

Additional observations from a re-analysis of the deposited data

Results flagged for a closer look

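Of 42 groups of 4 libraries screened (21 quantities in WT and in GrnKO), 4 held a library far from the other 3 by the 95% critical value of Dixon's ratio; chance flags about 1 in 20 groups. Mmp14 was 4.97 CPM in GrnKO replicate 2, against 2.53 to 2.90 CPM in the other GrnKO libraries. Mmp19 was 13.02 CPM in WT replicate 2, against 7.33 to 7.90 CPM in the other WT libraries. Adam8 was 616 CPM in WT replicate 1, against 335 to 351 CPM in the others. Adam15 was 139 CPM in GrnKO replicate 1, against 108.5 to 112.0 CPM in the others.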

How the results depend on the processing

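Mmp12 and Adamts1 were called under all 16 alternatives, with log2 fold changes of 1.42 to 1.54 and 3.12 to 3.38. Both were known to be higher when the set was made, so their calls are read only as a description. In addition, Adamts1 passed the count filters through its GrnKO libraries. Of 127 values of the 8 tested genes under the alternatives, 121 kept their direction and their side of the threshold. Mmp8 became called in 3 (log2 fold change -0.86 with no scaling factors, -0.79 by DESeq2 and -0.89 without WT replicate 1). Mmp13 changed sign in 3, with a range of -0.086 to 0.055 when 1 library was left out. The number of genes called over the whole table, which sets the background, was 918 when every gene with a count was tested and 831 by DESeq2. It was 942 without WT replicate 1, 287 without WT replicate 3 and 319, 267, 272 and 314 without GrnKO replicates 1 to 4. Family genes outside the set that were called numbered 1 with no scaling factors (Adam17) and 0 to 3 when 1 library was left out; the 3 were Mmp11 (named after its value was seen), Adam8 and Adam17, without WT replicate 1. The difference between the groups in the mean log2 ratio of MMP to TIMP sums was 0.97, and -0.37 without Mmp12; leaving out 1 library gave 0.84 to 1.16. The replicate numbers are not stated to pair the libraries, and same-numbered libraries did not deviate together (correlations of -0.39 to 0.15); with a replicate block 220 genes were called, Mmp12 and Adamts1 among them. The cause of these changes was not tested. Genes of about 30 counts or fewer per library, such as Mmp14, Timp1 and Timp3, are limited by depth.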
